A study of Mus musculus with 2 samples.

Results

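In mouse ureters deprived of WNT secretion, higher signals were recorded for *Lrrc55*, *Rasgef1a*, *Fbp1*, *Angptl7*, *Akr1c14*, *Defb45* and the transcript *4930519N06Rik*. These 7 genes were selected on measured values, as genes that read higher under the inhibitor in both arrays of the experiment and that were assigned to no named pathway. Their own ratios are therefore given as a description, without a test. They are 7 of the 29924 gene names on the arrays and are covered by 9 of the 39429 probes, which stand for 36 of the 157716 non-control spots on each array.

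Wildtype NMRI ureters were taken from pups on the day of birth (P0) and kept for 18 h on membranes in medium with 5 µM IWP-2 or with the solvent DMSO (1:1000, control). RNA of a control pool and of a treated pool of several ureters was hybridised together on a two-colour Agilent mouse array, and this was done on 2 arrays. Replicate 1 held female pools, with control RNA in the green dye (AlexaFluor555) and IWP-2 RNA in the red dye (AlexaFluor647), and replicate 2 held male pools with the dyes exchanged. There were thus 4 pools, each measured once, and sex, dye orientation and slide changed together between the replicates and cannot be told apart.

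IWP-2 inhibits PORCN, the acyltransferase of the endoplasmic reticulum that attaches a lipid to WNT proteins. WNT ligands without this lipid are not released from the cells that make them, so that neighbouring cells lack the signal that stabilises β-catenin. β-Catenin enters the nucleus and activates transcription together with factors of the TCF/LEF family. In the ureter, WNT ligands come from the epithelium and act on the surrounding mesenchyme, from which the lamina propria, the smooth muscle layer and the adventitia arise. Whole ureters were used, so a lower RNA amount per cell and a smaller number of cells of a type cannot be told apart.

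The treatment was read from genes outside the set. *Axin2*, a feedback inhibitor induced by WNT, gave signals of 181 in the control and 42.2 in the IWP-2 pool of replicate 1, and of 154 and 46.7 in replicate 2 (mean log2 ratio −1.91, limma adjusted p = 0.000824). The signal of the WNT target *Lgr5* went from 135 to the floor of 15 in replicate 1 and from 157 to 18.6 in replicate 2 (limma adjusted p = 1.61e-05), so the size of its fall is limited by the floor. *Porcn*, which encodes the enzyme that IWP-2 blocks, had a mean log2 ratio of −0.04 (limma adjusted p = 0.958). Between 68.8% and 70.3% of probes were well above background in the 4 channels, and 3.32% and 3.22% of spots carried an outlier flag on the 2 arrays. Signals are array intensities after normalization within each array, with a floor of 15. A gene at this floor can still carry the flag of a signal well above background. Ratios are log2 of IWP-2 over control, so that a value of 1 is a doubling. Signals of different probes are not compared with each other, since probes differ in brightness.

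All 7 genes were higher under IWP-2 in both arrays, which the selection required and which held for 25.7% of the 14336 genes tested. For all 7, both IWP-2 pools lay above both control pools, as was the case for 14.0% of all genes. *Lrrc55* and *Defb45* were among the genes tested only through the mean of their IWP-2 signals. The mean log2 ratios ran from 0.57 for *Defb45* to 1.22 for *Lrrc55*, with a median of 0.81, whereas the median over all genes tested was −0.01. The standard deviation of the log2 ratio over all genes was 0.22 in replicate 1 and 0.17 in replicate 2. Each probe was spotted 4 times on an array, and the standard deviation of the log2 ratio between spots was 0.03 to 0.09 for the 8 member probes that gave a signal.

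**Figure D1:**
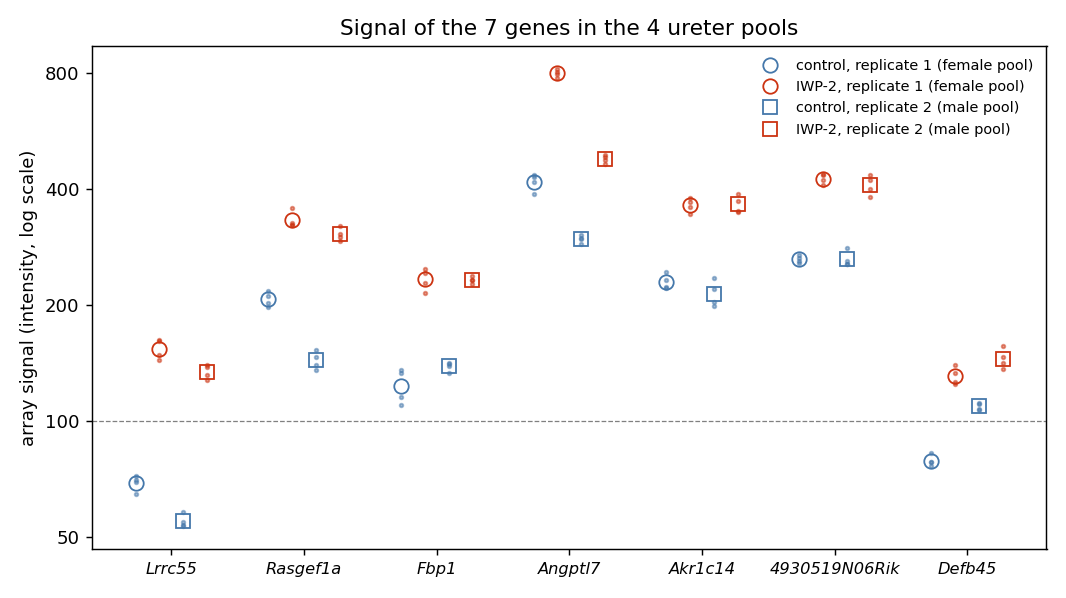
Array signal (intensity, log scale) of the brightest probe of each gene in the 4 pools. Open symbols are the means over 4 spots, small dots the single spots, circles replicate 1 (female), squares replicate 2 (male), blue control and red IWP-2. The dashed line marks the signal of 100 required of controls. In all 7 genes both red symbols lie above both blue symbols, and the controls of *Lrrc55* lie below the line on both arrays.

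*Lrrc55* encodes a leucine-rich repeat membrane protein that serves as an auxiliary subunit of the large-conductance, calcium-activated potassium (BK) channel and eases its opening. Its signal was 69.0 in the control and 154 in the IWP-2 pool of replicate 1, and 54.8 and 134 in replicate 2. Both treated pools were above both controls, and the female pools were somewhat brighter than the male pools in either condition. The ratio was 2.23-fold in the first array and 2.45-fold in the second (mean log2 ratio 1.22 ± 0.09, SD, n = 2 arrays). Of the 14336 genes tested, 1 had a higher mean. *Lrrc55* was among them only through its IWP-2 signals, so this rank is a description of the selected values. The probe lies at chr2:85028615-85028674 on the minus strand of mm9. A second *Lrrc55* probe, whose mm9 position at chr2:85002491-85002550 is 26064 bases away, was at the floor of 15 in all 4 channels and not well above background in any of them. The *Lrrc55* gene of RefSeq (GRCm38.p6) is 10684 bases long, shorter than that distance. The ratio of *Lrrc55* therefore rests on 1 probe, and since its control signals were below 100 it did not meet the intensity filter of the study.

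*Rasgef1a* encodes a guanine nucleotide exchange factor, a protein that switches on small GTPases of the RAS superfamily. Its signals were 207 and 332 in the control and IWP-2 pools of replicate 1, and 144 and 305 in those of replicate 2. The treated pools were close to each other, and the male control was the lowest of the 4 values. The log2 ratio was accordingly 0.68 between the female pools and 1.09 between the male pools (mean 0.88 ± 0.28, SD, n = 2). The arrays disagreed more for *Rasgef1a* than for 95.8% of genes. In the control pools its log2 difference of male from female was −0.53, and 1.17% of genes had a lower one. In the IWP-2 pools the same difference was −0.12, a value below which 16.1% of genes lay. The probe is at chr6:118041496-118041555 (plus strand, mm9).

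*Fbp1* encodes fructose bisphosphatase, a rate-controlling enzyme of gluconeogenesis best known from liver and kidney. Signals were 123 in the control and 233 in the treated pool of replicate 1, and 138 and 232 in replicate 2. The pools of the same treatment lay close together, in the treated pools to within 0.01 on the log2 scale. Log2 ratios were 0.92 and 0.75 (mean 0.83 ± 0.12, SD, n = 2). The probe is at chr13:62966175-62966234 (minus strand, mm9).

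*Angptl7* encodes a secreted protein of the angiopoietin-like family, known from the cornea and the trabecular meshwork of the eye. It gave signals of 417 and 799 in the control and IWP-2 pools of replicate 1, and of 297 and 478 in replicate 2. The treated pools exceeded both controls, but the treated male pool was only slightly above the female control. Log2 ratios were 0.94 and 0.69 (mean 0.81 ± 0.18, SD, n = 2). Male pools were lower than female pools under either treatment, with log2 differences of −0.49 between controls and −0.74 between treated pools. Only 0.0698% of genes had a lower difference between the treated pools, and 1.49% had a lower one between the controls. Each of these differences sets 1 pool against 1 pool and was not tested, and it is also a difference between dyes. The probe is at chr4:147869984-147870043 (minus strand, mm9).

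*Akr1c14* encodes an aldo-keto reductase that acts as a hydroxysteroid dehydrogenase and interconverts steroid hormones and their less active forms. Signals were 230 and 363 in replicate 1, control first, and 214 and 365 in replicate 2. The 2 controls and the 2 treated pools each agreed closely between sexes. Log2 ratios were 0.66 and 0.77 (mean 0.71 ± 0.08, SD, n = 2). The probe is at chr13:4089325-4089383 (plus strand, mm9). Its G and C content was 35%. Below that value lay 2.43% of probes and below 36.7% lay 25.7%, so many probes were at or close to it. Whether transcripts of closely related paralogs bound to the probe was not tested.

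*Defb45* belongs to the beta-defensins, small cationic peptides with disulphide bonds that kill microbes, many of which are made in the epididymis. Its brightest probe gave 78.8 in the control and 131 in the IWP-2 pool of replicate 1, and 109 and 145 in replicate 2. The treated pools were above the controls, with the least distance between the male control and the female treated pool. Log2 ratios were 0.73 and 0.41 (mean 0.57 ± 0.22, SD, n = 2). A dimmer second probe, which starts 107 bases further down the transcript, gave 35.1 and 61.7 in replicate 1 and 53.3 and 72.0 in replicate 2. Its log2 ratios of 0.81 and 0.43 followed those of the brighter probe on either array. With a control signal under 100 in replicate 1 and a 1.33-fold ratio in replicate 2, *Defb45* stayed outside the filter.

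*4930519N06Rik* is a transcript named after a clone of a cDNA library, and its function is not known. Its signals were 263 and 426 in replicate 1, control first, and 263 and 410 in replicate 2. The controls were equal and the treated pools nearly so, which made this the gene with the smallest difference between the arrays among the 7. Log2 ratios were 0.70 and 0.64 (mean 0.67 ± 0.04, SD, n = 2). RefSeq's gene table holds the other 6 genes but not this one, so it is identified here by the cDNA record and the sequence of its probe. The probe lies at chr11:33993044-33993103 (minus strand, mm9), and the hexamer in capitals, AATAAA, is spelled like the canonical polyadenylation signal.

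4930519N06Rik probe: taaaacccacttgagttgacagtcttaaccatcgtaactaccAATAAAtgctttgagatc

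The order of the genes by mean ratio was *Lrrc55*, *Rasgef1a*, *Fbp1*, *Angptl7*, *Akr1c14*, *4930519N06Rik* and *Defb45*. *Lrrc55* stood apart, as its lower ratio (1.16) was above the higher ratio of *Rasgef1a* (1.09). In the other 5 of 6 adjacent pairs the values of the 2 arrays overlapped, so that these neighbours did not differ beyond the spread between arrays. The larger ratio was that of the female pools for 4 of the 7 genes and that of the male pools for 3. On the array level, the IWP-2 spots of a probe were all above its control spots in 16 of 18 combinations of probe and array. The other 2 combinations were those of the *Lrrc55* probe without signal. As the genes were selected for higher signals and spots of a probe differ little, this separation is no support beyond the selection. The share over all probes was not counted. None of the 72 spots was flagged.

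**Figure D2:**
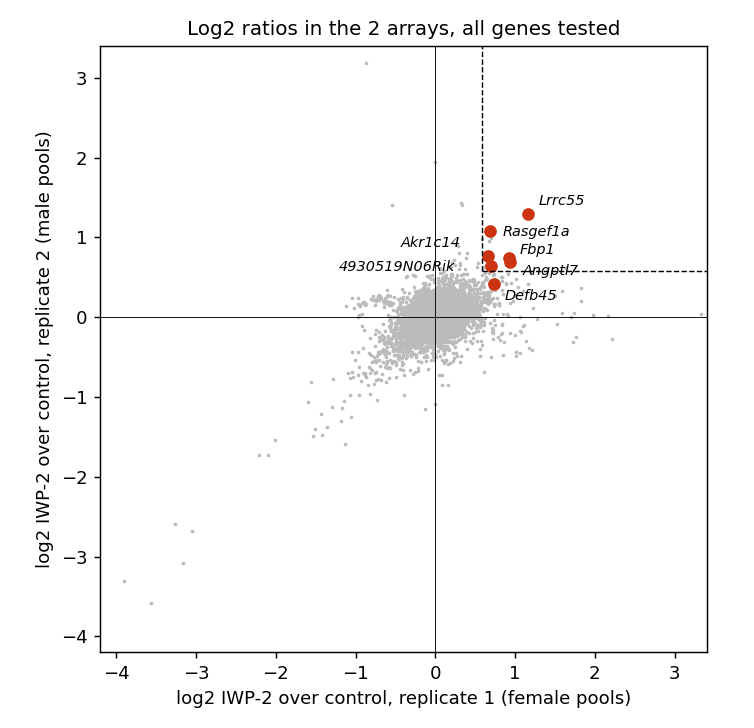
Log2 ratio of IWP-2 over control in replicate 1 (x axis) against replicate 2 (y axis) for the 14336 genes tested (grey dots) and the 7 selected genes (red). Dashed lines bound the area of at least 1.5-fold in both arrays. Of the 7 genes, 5 lie there with a control signal above 100, *Lrrc55* lies there with a dimmer control, and *Defb45* falls below the line of replicate 2.

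The study filtered its arrays by a control intensity above 100 and a 1.5-fold change, and the same filter was turned to the rising side. Of 14051 genes with control signals above 100 on both arrays, 11 were at least 1.5-fold higher in both, or 0.0783%, while 51 were lower. Of these 11, 5 were *Rasgef1a*, *Fbp1*, *Angptl7*, *Akr1c14* and *4930519N06Rik*. The other 6 were *Cxcl5*, *Hpgd*, *Strip2*, *Rbp7*, *Trf* and *Krt15*. Just inside the threshold, *4930519N06Rik* reached 1.56-fold in its weaker array and *Akr1c14* reached 1.58-fold, with *Krt15* at 1.51-fold and *Rbp7* barely past the threshold. Just outside lay *Unc5a*, *Angptl4* and *Marco*. In the weaker array *Unc5a* missed the threshold narrowly, and *Angptl4* and *Marco* both reached 1.46-fold.

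The genes of most similar pattern were found by the distance between pairs of log2 ratios, over the 2 arrays and among genes outside the 7 with control signals above 100. *Hpgd*, which encodes the prostaglandin-degrading dehydrogenase, was nearest to *Rasgef1a* (distance 0.09), and *Strip2* and *Rbp7* followed. The same 3 genes were nearest to *Lrrc55*, but at distances of 0.54 to 0.65, so that no gene searched had a like pattern. *Trf* (transferrin) was nearest to *Akr1c14* (0.05), with log2 ratios of 0.67 and 0.72, ahead of *Adamdec1* and *Krt15*. *Unc5a*, a netrin receptor gene, was nearest to *4930519N06Rik* (0.06), followed by *Trf* and *Krt15*. *Marco*, a scavenger receptor gene of macrophages, was nearest to both *Fbp1* (0.20) and *Angptl7* (0.15). *Trf* and the water channel gene *Aqp3* followed for *Fbp1*, and *Aqp3* and *Rnf144b* for *Angptl7*. *Reg3b*, which encodes an antimicrobial lectin, was nearest to *Defb45* (0.03), with log2 ratios of 0.75 and 0.40, ahead of *Sptssb* and *Tmprss11g*. These are likenesses over 2 points and were not tested.

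Relatives of the 6 coding genes were examined in the limma fit over all 14336 genes, in which 52 genes (0.363%) rose and 127 (0.886%) fell at an adjusted p under 0.05. Of 153 listed relatives 142 were on the arrays and 68 bright enough to test. One of the 68 rose and 0 fell, with 10 higher and 2 lower genes at an unadjusted p under 0.05. At that p 6.27% of all genes were higher and 6.64% lower. The median log2 ratio of the 68 was 0.04, against −0.01 for all genes. Of the 68, 31 were higher in both arrays by any amount and 7 lower in both, while 25.7% of all genes tested were higher in both.

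Among the angiopoietins and angiopoietin-like proteins, 1 of 8 tested genes rose. It was *Angptl4*, an inhibitor of lipoprotein lipase, with signals of 1453 and 2239 in replicate 1 and of 1514 and 2215 in replicate 2. The controls were close to each other, and so were the treated pools. The log2 ratios of *Angptl4* were 0.62 and 0.55 (limma adjusted p = 0.0175), a call that was lost with no filter on signal or with detection above background as the filter. *Angptl1* gave 0.73 for the female pools and −0.17 for the male pools, and *Angptl2* had the lowest mean of the family (−0.06). The median of the 8 was 0.17.

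Of 16 exchange factors for RAS and RAP proteins, 0 rose and 0 fell in limma, where 1 had an unadjusted p under 0.05 and a higher signal. Their means lay between −0.14 (*Rapgef3*) and 0.19 (*Rapgefl1*). *Rasgef1b*, the paralog of *Rasgef1a* in this tissue with a testable signal, had log2 ratios of −0.01 and −0.13 (limma adjusted p = 0.848).

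Of 20 tested genes of gluconeogenesis and glycolytic control, 0 passed limma in either direction, and 2 had an unadjusted p under 0.05, both higher. *Fbp2*, which encodes the muscle form of the bisphosphatase and whose probe lies next to *Fbp1* on chromosome 13, gave signals of 153 and 214 in replicate 1 and of 197 and 233 in replicate 2. Its log2 ratios of 0.48 and 0.24 were the largest of the list (limma adjusted p = 0.115). *Pfkfb1* had the lowest mean (−0.15). *Pck1* and *G6pc*, which encode the enzymes at the entry and the exit of gluconeogenesis, were at the floor in all 4 channels. *G6pc* was still flagged as well above background in 4 channels and *Pck1* in 2.

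Of 21 tested aldo-keto reductases and other steroid-converting enzymes, 0 passed limma, with unadjusted p under 0.05 for 5 higher and 2 lower genes. *Hsd17b2*, which inactivates estradiol and testosterone, had the largest mean (0.43, limma adjusted p = 0.144), and *Akr1b7* the lowest (−0.48, limma adjusted p = 0.0741). *Akr1c18*, the nearest gene to *Akr1c14* on its right side on chromosome 13, encodes a progesterone-metabolising enzyme and was too dim to enter the test. Its signals were 19.5 and 52.6 in replicate 1 and 27.6 and 47.9 in replicate 2. Both treated pools were above both controls, at log2 ratios of 1.43 and 0.79. With a signal threshold of 50 in place of 100 *Akr1c18* was tested and rose (mean 1.11, limma adjusted p = 0.0321). It passed that threshold only through its IWP-2 signals, with controls near the floor, so this call is no independent support.

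Of the BK channel genes, 3 could be tested and 0 passed limma, with 0 at an unadjusted p under 0.05. They were *Kcnma1*, which encodes the pore (mean log2 ratio −0.04), *Kcnmb1* (0.12) and *Kcnmb4* (0.12). *Lrrc26*, a relative of *Lrrc55* with the same kind of role, was dim and read 50.2 and 41.9 in replicate 1 and 75.8 and 55.6 in replicate 2, lower in the treated pool of either array. *Lrrc52* was at the floor and *Lrrc38* next to it.

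Of 43 other beta-defensins on the arrays, 0 were bright enough to test and 39 were not well above background in any channel. *Defb1*, the best known of those expressed in urinary epithelia, gave 36.5 and 32.3 in replicate 1 and 41.9 and 91.2 in replicate 2. Its treated pool was the brighter one among male but not among female ureters.

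**Figure D3:**
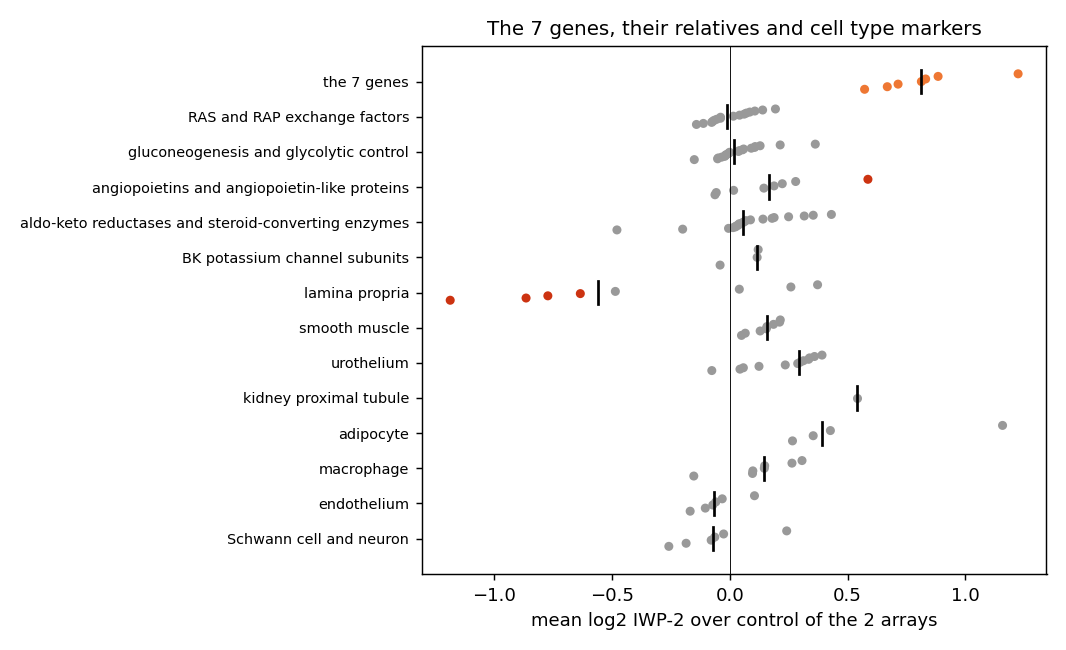
Mean log2 ratio of IWP-2 over control of the 2 arrays for the 7 genes (orange), for the tested members of the lists of relatives and for the tested cell type markers. Each dot is a gene, red dots passed limma at an adjusted p under 0.05, and black bars are medians. The medians of the lists of relatives run from −0.01 to 0.17. *Angptl4* is the red dot on the right, and the 4 red lamina propria genes lie between −1.19 and −0.63.

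Genes beside the 7 on the chromosomes were also read. The nearest gene on each side with a probe gave 14 neighbours, of which 6 could be tested and 0 passed limma, with 1 at an unadjusted p under 0.05. Among them were *Csgalnact2* next to *Rasgef1a* (mean log2 ratio −0.09), *Fbp2* (0.36) and *2010111I01Rik* (0.05) around *Fbp1*, *Mtor* (−0.06) next to *Angptl7*, and *Aplnr* (−0.11) next to *Lrrc55*. Of the 8 dim neighbours, *Ucn3*, *Olfr987*, *Defb19*, *Defb36* and *Lcp2* were at the floor throughout. *Fxyd4* and *Foxi1* lay near it, and *Akr1c18* has been described. *Lcp2* and *4930519N06Rik* have probes only 3114 bases apart. The 7 genes lie on 5 chromosomes, with *Lrrc55* and *Defb45* on chromosome 2 and *Fbp1* and *Akr1c14* on chromosome 13.

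Promoters were compared because the 7 genes, as selected, were higher together when WNT release was blocked. RefSeq (GRCm38.p6) gives 7 promoter sequences for 6 of the genes, with 2 for *Rasgef1a* and none here for *4930519N06Rik*. Each runs from 250 bases before an annotated transcript start to 50 bases after it. The start used for *Akr1c14* and the second one of *Rasgef1a* lie inside the RefSeq extent of the gene. The TCF/LEF recognition word was searched in 4 spellings, as CTTTGAA or CTTTGAT or CTTTGTA or CTTTGTT, on both strands. None of the 7 promoters held any of them, against 16.9% of all 32851 promoters. This says only that these letters do not occur in these windows. The promoters ranged widely in base composition, from 39.7% G and C with 2 CpG dinucleotides for *Akr1c14* to 79.7% with 48 CpG dinucleotides for the upstream start of *Rasgef1a*. The median of all promoters was 52.7% with 7 CpG dinucleotides, and the promoter of *Lrrc55* had 54.7% with 4. Those of *Angptl7* (51.3%), *Defb45* (51.7%) and *Fbp1* (57.3%) were also near the median. The last 100 bases before the transcript start are shown for *Lrrc55*, *Rasgef1a* and *Akr1c14*, 5′ to 3′ in the direction of transcription, with CpG in capitals. They are at chr2:85198751-85198850 (minus strand) for *Lrrc55*, chr6:118011405-118011504 (plus strand) for *Rasgef1a* and chr13:4059491-4059590 (plus strand) for *Akr1c14*.

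Lrrc55 promoter: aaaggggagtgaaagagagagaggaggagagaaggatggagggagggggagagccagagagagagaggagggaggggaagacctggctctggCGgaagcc
Rasgef1a promoter: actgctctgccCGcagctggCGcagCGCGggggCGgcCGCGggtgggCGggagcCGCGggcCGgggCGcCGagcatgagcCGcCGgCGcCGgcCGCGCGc
Akr1c14 promoter: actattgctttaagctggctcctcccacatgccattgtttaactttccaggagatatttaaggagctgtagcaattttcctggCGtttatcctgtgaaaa

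The stretches of *Lrrc55* and *Akr1c14* hold 1 CpG dinucleotide each and that of *Rasgef1a* holds 20. The *Lrrc55* stretch is mainly a run of G and A. No base composition was common to the 3.

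Markers of the cell types a dissected ureter can hold were read beside the 7 genes. Of 12 urothelial markers, 10 were higher under IWP-2 in both arrays and 0 passed limma, with 8 at an unadjusted p under 0.05, all higher, against 6.27% of all genes. Their median log2 ratio was 0.29, and their summed signal was 111966 and 144512 in replicate 1, control first, and 135708 and 145957 in replicate 2. *Grhl3*, which encodes a transcription factor of the surface cells, had the largest mean (0.39, limma adjusted p = 0.115). The part of the epithelium in the ratios of the 7 genes was not tested.

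Of 8 lamina propria markers, 4 fell, namely *Itga4* (−1.19, limma adjusted p = 0.0315), *Avpr1a* (−0.86, 0.0157), *Ahr* (−0.77, 0.0392) and *Aldh1a2* (−0.63, 0.028). *Foxf1* (0.20 and 0.54) and *Ptch1* (0.03 and 0.49) were higher in both arrays without passing limma, and at an unadjusted p under 0.05 the list held 1 higher and 5 lower genes. The list follows genes that the study picked with these arrays, so its direction is no independent evidence. All 4 calls were lost with the mean over probes and with either of those changes of filter, and those of *Itga4* and *Ahr* also on the signals as deposited. Of 8 smooth muscle markers 0 passed limma, the median was 0.16, and 2 had an unadjusted p under 0.05. Macrophage markers (7 tested, 0 called, 2 at an unadjusted p under 0.05) had a median of 0.15, endothelial markers (6 tested, 0 called, 0 at such a p) of −0.07, and markers of Schwann cells and neurons (6 tested, 0 called, 2 at such a p) of −0.07.

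As *Fbp1* is known from the kidney and *Defb* genes from the epididymis, both tissues were looked for. Of 12 kidney tubule markers 1 was bright enough to test, *Slc13a3*, with 91.4 and 153 in replicate 1 and 305 and 385 in replicate 2 (mean log2 ratio 0.54, limma adjusted p = 0.0811). *Kap*, *Slc5a2* and *Umod* were at the floor in all 4 channels, and *Slc34a1*, *Miox* and *Hnf4a* at or near it. *Cubn* read 38.6 and 32.6 in replicate 1 and 45.7 and 45.6 in replicate 2. *Lrp2* read 22.8 and 15 in replicate 1 and 61.4 and 59.4 in replicate 2. Of the 12 markers, 2 were not well above background in any channel. The summed signal of the 12 was 288 and 336 in replicate 1 and 559 and 647 in replicate 2. Markers at the floor entered these sums as 15 each. Of 10 epididymal markers 0 could be tested and 8 were not well above background, with summed signals of 157 to 166. Most of the epididymal sum is the floor of 15 entered for each marker without signal. Of 4 adipocyte markers tested 0 passed limma, and 2 had an unadjusted p under 0.05, both higher. *Pparg* (log2 ratios 0.45 and 0.26), *Fabp4* (0.25 and 0.28) and the dim *Plin1* (0.50 and 1.10) were higher in both arrays. *Adipoq* and *Cfd* were uneven between pools. *Adipoq* read 300 and 205 in replicate 1 but 66.3 and 175 in replicate 2, and *Cidec* and *Lep* were at the floor. Most of the adipocyte signal came from *Fabp4* and *Pparg*, at 11964 and 5038 in the control of replicate 1. *Cfd*, like *Adipoq*, was lower under IWP-2 in replicate 1 and higher in replicate 2. The summed signal of the 7 adipocyte markers was 17630 and 21534 in replicate 1 and 18822 and 23023 in replicate 2. Their part in the 7 genes was not tested.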

How the data were processed

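The values derive from 2 two-colour Agilent arrays. The processed intensities deposited by the authors come from Feature Extraction (12.2.0.7 per the file headers, 10.7.3.1 per the labels), which subtracts background and normalizes the dyes. The log10 ratios in the deposited files served only to check direction and equalled the log10 ratio of the processed signals within 0.001 for 83% of spots, while 17% were listed at 0. A series table, also deposited, gives a score for each probe and array that reads as a signed fold change. It correlated with the log2 ratios used here at r = 0.980 and 0.966 across probes, and was used only for this comparison. Channels were assigned by the dyes in the labels, and 0 other columns of per-sample values existed.

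Flagged and control spots were left out, loess was run within each array (limma 3.58.1, R 4.3.3), spots were averaged per probe, values were floored at 15 and log2 was taken. The brightest probe stood for a gene, and 7395 of 29924 genes had several. Ratios of genes with a mean signal above 100 in a condition were tested against 0 with limma (lmFit, eBayes), with Benjamini-Hochberg adjustment at 0.05 and 1 residual degree of freedom. The labels do not say whether the pools came from separate litters, so p-values measure only the spread between these arrays. The number of arrays limits the precision, and pools within an array are paired by construction. Coordinates of probes are those of the files (mm9), and promoters and gene lengths are from RefSeq tables of GRCm38.p6. The steps were tested on simulated data with 14336 genes. Each simulated array was given the noise of a mean of 2 arrays, which is less than that of 1 array, and every gene had the same noise. With this low noise limma called 100% of 100 changes of 0.5 and of 100 changes of 1 on the log2 scale. The 203 calls included 3 unchanged genes. In the measured data, changes near 0.5 were called for some genes and not for others. *Angptl4* was called at a mean log2 ratio of 0.59 (limma adjusted p = 0.0175). *Slc13a3* at 0.54 (limma adjusted p = 0.0811) and *Akr1b7* at −0.48 (limma adjusted p = 0.0741) were not. The simulation therefore does not give the share of real changes of 0.5 that the fit would find. An uncalled gene may have changed.

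The 7 genes and the lists of relatives and markers were chosen with earlier results of these data known. Besides them, the text names genes past the filter and those just outside it, the 3 genes of nearest pattern, chromosomal neighbours, called genes and extremes of each list, and *Axin2*, *Lgr5* and *Porcn*. *Rasgef1b*, *Angptl1*, *Akr1c18*, *Pck1*, *G6pc*, *Defb1*, *Kcnmb1* and the further *Lrrc* genes were named after their values were seen. So were the tubule and adipocyte markers other than *Slc13a3* and *Cfd*. Alternatives covered flagged spots, floor, normalization, background correction, probe summary, filters, fold thresholds and leaving out an array. A further chromosomal neighbour and a further probe sequence are not reported here.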

Additional observations from a re-analysis of the deposited data

Results flagged for a closer look

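The ratio of *Cfd* was at least 1.5-fold in both arrays but in opposite directions. *Cfd*, an adipocyte gene that encodes complement factor D, gave signals of 274 and 150 in the control and IWP-2 pools of replicate 1 and of 19.7 and 180 in those of replicate 2. Its log2 ratio was −0.87 between female pools and 3.19 between male pools, and replicate 1 minus replicate 2 gave −4.06. This difference was not tested, and sex and dye orientation cannot be told apart. *Angptl1*, *Adipoq* and *Defb1* also had opposite signs, with a ratio under 1.5-fold in 1 of the arrays. None of the 7 genes changed direction between the arrays.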

How the results depend on the processing

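The mean log2 ratios of the 7 genes kept their direction in the 56 values recomputed from both arrays under 8 alternatives each. Of these, 53 moved by no more than the spread between arrays, but many of them could not move. No spot of the 7 genes was flagged and their brightest probes lay above the floor, so keeping flagged spots or lowering the floor changed nothing. Averaging over probes changed nothing for genes with a single probe, and normalization between arrays left the ratios almost the same. Leaving out an array returns the ratio of the other one, as given above. The 3 values that moved further were *Lrrc55* with normexp background correction (1.06), *Lrrc55* averaged over both its probes (0.61), and *4930519N06Rik* with median centring (0.71). Members past the filter numbered 3 with a control signal above 200 and 0 at 2-fold. All genes past it numbered 25 with controls well above background in place of the intensity limit, 136 at 1.2-fold, 0 at 2-fold, and 25 to 112 with 1 array left out. Genes called higher by limma numbered 32 on processed signals as deposited, 85 with median centring, 100 with normexp and 17 with the mean over probes. Those called lower numbered 50 with the mean over probes. With genes well above background on all channels, or with no filter on signal, limma called 0 genes in either direction, 0 relatives higher and 0 markers lower. At an unadjusted p under 0.05 it gave 893 higher and 1187 lower genes with the former filter and 879 and 1149 with the latter, of which 7 and 6 were higher relatives and 4 and 1 lower markers. These fits held 1570 and 11753 genes with a log2 ratio of exactly 0 on both arrays. Relatives called higher numbered 2 with a signal above 50, and 1 was called lower with normexp (*Akr1b7*). The relative added above 50 was *Akr1c18*, which passed that limit only through its IWP-2 signals. Markers called higher numbered 1 with normexp (*Slc13a3*) and 1 with the mean over probes (*Ptch1*). Markers called lower numbered 2 on signals as deposited and 0 with the mean over probes. The causes of these shifts were not tested. No paired analysis was possible because each ratio already compares the 2 pools of 1 array, which leaves no further block to fit. Leaving out an array leaves no residual degrees of freedom, so no test was run there. The raw control signals of *Lrrc55* were 9.30 and 5.75 times the local background, which limits the precision of its ratio.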
